A study of Mus musculus with 4 samples.

Results

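The cells described here were fibroblasts of the mouse aortic arch with transcripts of Tfap2b or Mab21l2. They were chosen by their own measured values, in counts of UMIs (unique molecular identifiers, by which copies of 1 captured transcript are counted as 1). Cell barcodes passed with 200 to 6000 detected genes and a mitochondrial share of up to 15%. A fibroblast was a passing cell with at least 10 UMIs of Dcn, at least 1 of Pdgfra, 0 of Ptprc and at most 1 of Myh11. A Tfap2b/Mab21l2 fibroblast was a fibroblast with at least 2 UMIs of Tfap2b and Mab21l2 added together. There were 113 of them among 6327 fibroblasts and 14148 passing cells.

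The study removed Nrf2 function with Cdh5-Cre, which excises exon 5 of Nfe2l2, the gene of Nrf2, in endothelial cells and in part of the haematopoietic cells. All mice were males with floxed Nfe2l2 alleles, 3 months old at the start. The library Lox_CTR came from Nrf2flox/flox mice without Cre (genotype label Nrf2Cdh5Lox) that were given saline and standard diet, and KO_CTR from mice labelled Nrf2Cdh5tKO given the same. Lox_HFD and KO_HFD came from mice of the same genotype labels that received an injected agent in place of saline and a high-fat diet for 21 weeks. Each library was 1 pool, of 4 mice for each CTR library and 3 mice for each HFD library, made from arches with their branches and perivascular tissue, digested with enzymes and sorted for living cells. With 1 library per condition, intervals are exact 95% intervals that cover counting error only, and levels were set side by side between conditions with no test.

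Tfap2b encodes the transcription factor AP-2 beta, which is active in neural crest cells. It is known for its part in closure of the ductus arteriosus, the fetal vessel that joins the pulmonary artery to the aortic arch. Mab21l2 encodes a nuclear protein of the MAB21 family, known for its part in the development of the eye and of the ventral body wall. Much of the wall of the aortic arch and its branches descends from the neural crest, and fibroblasts of the outer layer, the adventitia, build its collagen-rich matrix.

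The Lox_CTR library held 8512 barcodes and 98754487 UMIs. KO_CTR held 3460 barcodes and 43717402 UMIs, Lox_HFD held 1160 and 12276546, and KO_HFD held 2467 and 24184211. The fibroblasts numbered 3568 in Lox_CTR, 1396 in KO_CTR, 408 in Lox_HFD and 955 in KO_HFD, between 40.0% and 47.0% of the passing cells. Libraries shared between 2 and 10 barcodes in pairs, and 0 of the shared barcodes were Tfap2b/Mab21l2 fibroblasts.

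Of the fibroblasts, 75 in Lox_CTR were Tfap2b/Mab21l2 fibroblasts, 2.10% (1.66 to 2.63, exact Clopper-Pearson interval). In KO_CTR there were 21, 1.5% (0.934 to 2.29). In Lox_HFD there were 6, 1.47% (0.542 to 3.17), and in KO_HFD there were 11, 1.15% (0.576 to 2.05). The Lox_CTR share was the highest, and its interval overlapped that of each other library. Under stricter limits the gap was wider. With at least 1 UMI of each gene the share was 1.18% (0.850 to 1.59) in Lox_CTR, 0.215% (0.0443 to 0.627) in KO_CTR, 0.245% (0.00621 to 1.36) in Lox_HFD and 0.209% (0.0254 to 0.754) in KO_HFD, so the interval of Lox_CTR lay apart from those of both KO libraries. With at least 3 UMIs it was 1.21% (0.874 to 1.62) in Lox_CTR and 0.358% (0.116 to 0.834) in KO_CTR, again apart, while the intervals of the HFD libraries overlapped that of Lox_CTR. The cells were therefore few outside Lox_CTR, and a gene needed 24.2 CPM (UMIs per 1000000 UMIs of the same cells) in Lox_HFD and 18.4 CPM in KO_HFD to reach 3 UMIs, against 2.99 CPM in Lox_CTR and 6.99 CPM in KO_CTR. Their median UMIs per cell were 13159 in Lox_CTR, 20346 in KO_CTR, 19939 in Lox_HFD and 12412 in KO_HFD, above the 12569, 16832, 14191.5 and 11573 of the other fibroblasts. Their median mitochondrial shares were 1.97%, 2.16%, 1.60% and 1.48%, against 1.71%, 1.82%, 1.85% and 1.70%. The share of gated cells depended on depth: with fibroblasts thinned to 5000 UMIs it was 0.785%, 0.299%, 0.268% and 0.247% in the same order. Fibroblasts too shallow to be thinned, 382, 56, 35 and 145 of them, were left out of these shares.

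Which of the 2 genes brought a cell in differed between the libraries. In Lox_CTR, 65 of the 75 cells held a Tfap2b UMI (86.7%). In KO_CTR it was 4 of 21 (19.0%), in Lox_HFD 2 of 6 (33.3%) and in KO_HFD 4 of 11 (36.4%). As a share of all fibroblasts, cells with Tfap2b were 1.82% (1.41 to 2.32) in Lox_CTR, 0.287% (0.0781 to 0.732) in KO_CTR, 0.490% (0.0594 to 1.76) in Lox_HFD and 0.419% (0.114 to 1.07) in KO_HFD. The cells that held Mab21l2 alone went the other way, at 0.280% (0.134 to 0.515), 1.22% (0.711 to 1.94), 0.980% (0.268 to 2.49) and 0.733% (0.295 to 1.5). The split by Tfap2b was made after the values were seen and was given no test. The intervals of Lox_CTR lay apart from those of KO_CTR, which shared its diet, for both kinds of cell, and overlapped those of Lox_HFD, which shared its genotype label. Against KO_HFD they lay apart for the cells with Tfap2b and overlapped for those with Mab21l2 alone. With 1 pool each, the condition and the pool cannot be told apart.

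**Figure D1:**
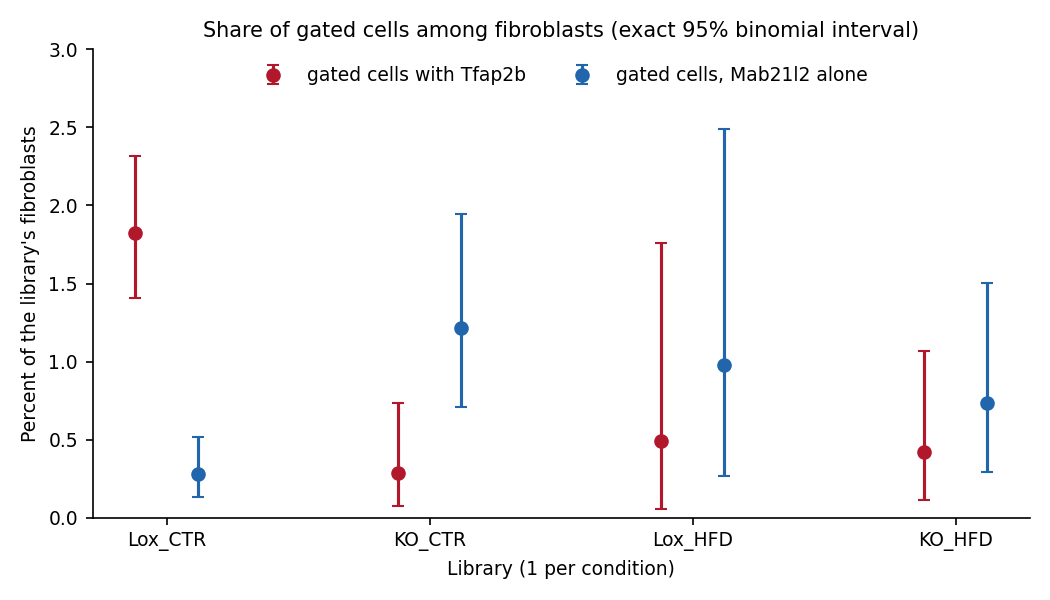
The plot shows, for each of the 4 libraries, the percent of fibroblasts (vertical axis) that were Tfap2b/Mab21l2 fibroblasts with a Tfap2b UMI (red) or with Mab21l2 alone (blue), with exact 95% Clopper-Pearson intervals as error bars. Cells with Tfap2b reached 1.82% in Lox_CTR and at most 0.490% in the other libraries.

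The limit of the gate holds the other fibroblasts to at most 1 UMI of both genes together, so their low level there is fixed by the rule, while the leukocytes are a background that the rule did not set. Leukocytes were taken as passing cells with at least 2 UMIs of Ptprc and 0 of Pdgfra and of Myh11. Tfap2b (chr1:19208914-19238576, plus strand, GRCm38) was detected in 24 of the 3493 other fibroblasts of Lox_CTR, 0.551 CPM, and in 0 of its 1056 leukocytes. In the gated cells it reached 13 UMIs in 1 cell. Mab21l2 (chr3:86545581-86548629, minus strand) was detected in 1.60% of the other fibroblasts of Lox_CTR and in 0 of the leukocytes, whose median depth was 8927 UMIs. The other libraries held 2 UMIs of each gene in their leukocytes. Tfap2b was at 0.193 CPM in those of KO_CTR and 0.304 in those of Lox_HFD, from 1 UMI each, against 0.130 and 0.170 CPM in the other fibroblasts, and Mab21l2 was at 0.729 CPM in those of KO_HFD against 0.898, so in these cases the level in the other fibroblasts was not detectably above that in the leukocytes. In Lox_CTR 42 of the 89 fibroblasts with Tfap2b also held Mab21l2 (47.2%), against 1.90% of those without Tfap2b. In the other libraries it was 3 of 7 in KO_CTR, 1 of 3 in Lox_HFD and 2 of 6 in KO_HFD, against 3.02%, 2.96% and 1.79%. Read the other way, 42 of 108 fibroblasts with Mab21l2 held Tfap2b in Lox_CTR, 3 of 45 in KO_CTR, 1 of 13 in Lox_HFD and 2 of 19 in KO_HFD. As the gate is made of these 2 genes, the counts are a description. Both were in 42 of the gated cells in Lox_CTR, 3 in KO_CTR, 1 in Lox_HFD and 2 in KO_HFD. Outside the fibroblast gate, 85 passing cells also held at least 2 UMIs of the 2 genes. Of these 68 held more Myh11, a smooth muscle gene, than the gate allows, and 36 failed on that limit alone, of which 34 lay in Lox_CTR.

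In Lox_CTR the cells just inside and just outside the limit differed by degree. In Lox_CTR, 80 fibroblasts held 1 UMI of the 2 genes, 32 held 2 and 43 held 3 or more. Aqp5 was detected there in 0.762% of the fibroblasts with 0 UMIs, 10% of those with 1, 34.4% of those with 2 and 48.8% of those with 3 or more. For P2ry14 the shares were 1.73%, 17.5%, 43.8% and 55.8%. The other libraries did not show these steps. Neither gene was found there in the cells with 1 UMI or with 3 or more, and among those with 2 UMIs Aqp5 was in 6.25% in KO_CTR and 12.5% in KO_HFD, and P2ry14 in 6.25% in KO_CTR.

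The 3 markers listed beside the gate genes held in Lox_CTR and not in the other libraries. Aqp5 (chr15:99590782-99594829, plus strand) encodes a water channel of secretory epithelia. It had 124 UMIs in the gated cells of Lox_CTR, 9 in KO_CTR that all lay in 1 cell, 0 in Lox_HFD and 2 in KO_HFD. Nrn1 (chr13:36725361-36735131, minus strand) encodes neuritin, a membrane-anchored protein that promotes neurite growth, and had 78, 0, 0 and 0 UMIs in the same order. P2ry14 (chr3:59113855-59153618, minus strand) encodes a receptor for UDP-sugars, and had 81, 1, 0 and 0. Added together, the 3 markers stood at 282 CPM against 7.71 CPM in the other fibroblasts in Lox_CTR, 23.3 against 2.98 in KO_CTR, 0 against 4.77 in Lox_HFD and 12.3 against 3.86 in KO_HFD. These values are a description of the gate, with no test. P2ry14 was also present in the leukocytes, in 5.21% of those of Lox_CTR, and in the other fibroblasts of that library it was in 2.09%.

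Within Lox_CTR the 65 cells with Tfap2b carried Tfap2b at 179 CPM (152 to 210, exact Poisson interval), Mab21l2 at 100.02, Aqp5 at 140 (116 to 167), Nrn1 at 77.0 and P2ry14 at 83.9 CPM. Aqp5 was found in 30 of these cells, Nrn1 in 28 and P2ry14 in 36. A reverse gate of at least 3 UMIs of the 3 markers added together took 66 fibroblasts in Lox_CTR, 1.85% (1.43 to 2.35), of which 31 were Tfap2b/Mab21l2 fibroblasts. It took 4 fibroblasts in KO_CTR, 3 in Lox_HFD and 2 in KO_HFD, of which 1, 0 and 0 were. All 5 genes were found in the same cell in 9 of the 75 gated cells of Lox_CTR and in 0 of those of the other libraries. At least 2 of the 3 markers were in 33 of the 75, and 24 held none of them. The gated cells of the other libraries are named here by the rule alone.

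**Figure D2:**
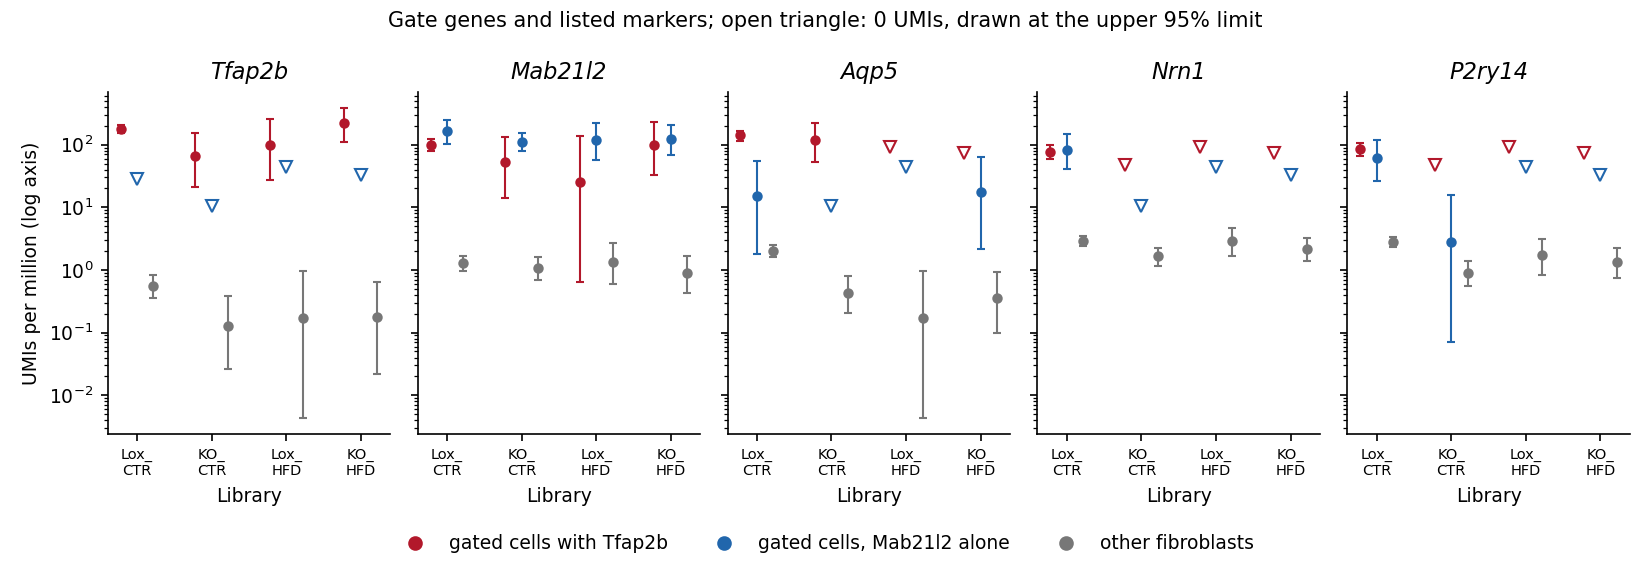
The plot shows the level in CPM, on a log axis with exact 95% Poisson intervals, of Tfap2b, Mab21l2, Aqp5, Nrn1 and P2ry14 in the gated cells with Tfap2b (red), those with Mab21l2 alone (blue) and the other fibroblasts (grey) of each library, with open triangles at the upper limit where there were 0 UMIs. Nrn1 and P2ry14 are high in the gated cells of Lox_CTR, while in the gated cells of the other libraries Nrn1 has 0 UMIs and P2ry14 at most 1.

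AP-2 factors bind a palindrome with the core GCCNNNGGC, so the promoters were searched for these letters. The search covered 250 bases before to 50 after each start in RefSeq on GRCm38.p6, on both strands, which for a palindrome hold the same matches. Of all 32851 promoter entries 16.6% held a match, and of the 8447 tested genes with a promoter 29.6% did. A match was in 11 of the 51 promoters (21.6%) of genes higher in the gated cells, as tested below, and in 22 of the 103 (21.4%) of genes lower there, neither share being above that of the tested genes. Of Tfap2b, Mab21l2, Aqp5 and P2ry14, Aqp5 alone held a match. The sequences show its 30 bases around the match, which begins 41 bases after the start (chr15:99591048-99591077, plus strand), and the 250 bases before the start of Aqp1 (chr6:55336049-55336298, plus strand) and Pcsk6 (chr7:65861886-65862135, plus strand), 2 called genes with a match. Capitals mark the match, 81 bases before the start in Aqp1 and 179 and 68 bases before it in Pcsk6. A match is a description of letters, not a site.
Aqp5: ggcctctgggcgcgggagccGCCCCCGGCc
Aqp1: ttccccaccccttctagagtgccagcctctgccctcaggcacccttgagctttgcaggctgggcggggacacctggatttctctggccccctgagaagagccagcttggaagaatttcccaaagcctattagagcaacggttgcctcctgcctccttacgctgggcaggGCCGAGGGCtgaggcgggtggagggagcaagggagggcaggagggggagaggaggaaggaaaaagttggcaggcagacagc
Pcsk6: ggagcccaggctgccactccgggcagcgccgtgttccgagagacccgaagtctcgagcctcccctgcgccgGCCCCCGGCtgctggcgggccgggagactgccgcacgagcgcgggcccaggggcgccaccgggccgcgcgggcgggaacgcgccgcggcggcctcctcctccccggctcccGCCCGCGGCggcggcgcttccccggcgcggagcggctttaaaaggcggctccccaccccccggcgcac

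Genes other than the gate genes and the 3 markers were then compared between the gated cells and the other fibroblasts of the same library. UMIs were summed per library and class, giving 8 sums, and tested with edgeR's quasi-likelihood test with library as a term, with Benjamini-Hochberg adjustment over 10803 genes. At an adjusted p below 0.05, 83 genes were higher in the gated cells (0.768%) and 141 lower (1.31%). Of these, 62 and 137 went the same way in all 4 libraries. A library at 0 UMIs counted as lower, as it did for 45 of the 137, and for 5 of them, Alkal2, Cxcl13 and Ptn among them, under 1 UMI was observed or expected in at least 1 library. Among the called genes with at least 3 UMIs observed or expected in the gated cells of each library, 49 of 52 higher and 120 of 124 lower genes went the same way in all 4. A test within libraries favours such genes, so these counts are a description. The higher genes included transcription factors of the pharyngeal arches, the growth factor gene Gdnf and markers shared with pericytes. The lower genes included those of Pi16-bearing adventitial fibroblasts, chemokine and cytokine genes and matrix genes. At the shares of 0.768% and 1.31% over all genes, most of the gene lists below would hold 0 called genes. A list with 0 called is thus not a result about its genes. When a library was left out, between 51 (without KO_HFD) and 69 genes were higher and between 110 and 132 lower. Of the 83 higher genes 19 were called in all 4 of those fits, and of the 141 lower genes 73 were. With 5 other fibroblasts matched in depth to each gated cell, 24 were higher and 62 lower, of which 24 and 61 were among those called above. The lists of genes depended on the gate. With at least 3 UMIs of the 2 genes 74 were higher and 173 lower, of which 39 and 103 were among those called above, and with at least 1 UMI of each gene 76 and 149, of which 28 and 65 were. Without Lox_CTR 62 were higher and 126 lower, of which 34 and 102 were.

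Transcription factors of the neural crest and pharyngeal arches were the list with the most genes higher in the gated cells, 6 of 26 tested. That was 23.1%, against 0.768% of all genes tested. By share the pericyte markers held more, 3 of 5 tested (60%). In the arch list 1 gene was lower, and the median log2 fold change over the list was 0.22, against −0.03 over all genes tested. Added together, the list was lower in Lox_CTR, at 1249 CPM (1181 to 1320, exact Poisson interval) against 1337. It was higher in KO_CTR, at 2327 against 1451, in Lox_HFD, at 2119 against 1712, and in KO_HFD, at 2008 against 1592. Pax9 is needed for the pharyngeal pouches and the arch arteries. It had 28 UMIs (27.9 CPM) in the gated cells of Lox_CTR, 8 (18.6) in KO_CTR, 4 (32.2) in Lox_HFD and 8 (49.1) in KO_HFD, against 2.34, 2.25, 2.90 and 3.95 CPM in the other fibroblasts. In every library the counting interval of the ratio left out 0, and the log2 fold change was 3.38 ± 0.39 (SE; edgeR adjusted p = 0.000306). Its UMIs lay in 18, 5, 2 and 4 cells, so the level came from a part of the cells.

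Dlx5 and Dlx6, neighbouring homeobox genes that pattern the arches along their upper to lower axis, were both higher. Dlx6 stood at 6.98, 21, 16.1 and 12.3 CPM in Lox_CTR, KO_CTR, Lox_HFD and KO_HFD, against 1.35, 1.17, 1.36 and 1.35 CPM (log2 fold change 3.20 ± 0.55, edgeR adjusted p = 0.00461), and without KO_CTR it was no longer called (2.68, adjusted p = 0.0757). Dlx5 had 22, 12, 0 and 7 UMIs, so it was not seen in Lox_HFD (2.01 ± 0.45, adjusted p = 0.0268), and it was no longer called without Lox_CTR (adjusted p = 0.0653), KO_CTR (0.122) or KO_HFD (0.139), with log2 fold changes of 2.02, 1.78 and 1.93. Barx1, a homeobox gene of arch and stomach mesenchyme, had 6, 4, 1 and 4 UMIs, 15 in all (4.73 ± 0.69, adjusted p = 0.0014). All 3 genes were low, with few UMIs behind each value.

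Foxf1 encodes a forkhead factor of mesenchyme that responds to hedgehog signals. It was at 106 CPM against 7.46 in Lox_CTR, 21 against 7.0 in KO_CTR, 32.2 against 3.92 in Lox_HFD and 18.4 against 5.57 in KO_HFD (2.80 ± 0.42, edgeR adjusted p = 0.00175). It was found in 56 of the 75 gated cells of Lox_CTR and in 3, 2 and 3 cells of the other libraries, and without Lox_CTR it was no longer called (1.86, adjusted p = 0.120). Prrx2, a homeobox gene of limb and arch mesenchyme, was more abundant, at 95.8, 158, 96.7 and 117 CPM against 53.7, 62.3, 51.0 and 55.5 (0.99 ± 0.18, adjusted p = 0.00728), and was not called without KO_CTR (0.84, adjusted p = 0.065). Of the 6 higher genes Pax9 and Barx1 were called whichever library was left out. Foxd1, a forkhead gene of kidney stroma, was the 1 gene of the list that was lower, with 2, 1, 0 and 0 UMIs (−3.37 ± 0.58, adjusted p = 0.0044). Of the AP-2 and MAB21 families outside the gate, Tfap2a had 11 UMIs in the gated cells, and Tfap2c, Tfap2d, Tfap2e and Mab21l3 had 0.

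**Figure D3:**
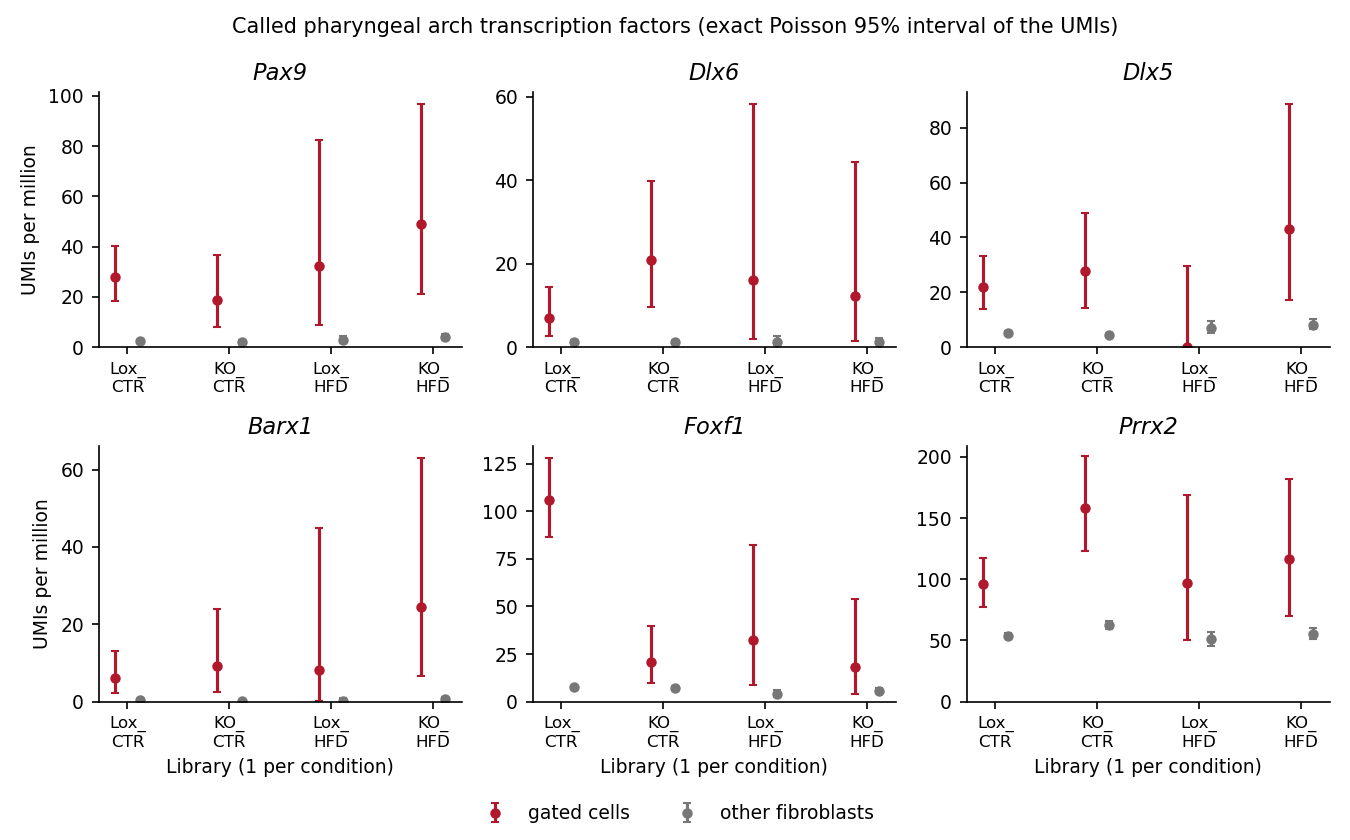
The plot shows the level in CPM of Pax9, Dlx6, Dlx5, Barx1, Foxf1 and Prrx2 in the gated cells and in the other fibroblasts of each library, with exact 95% Poisson intervals. Pax9, Dlx6, Barx1, Foxf1 and Prrx2 are higher in the gated cells of every library, and Dlx5 is at 0 in those of Lox_HFD.

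Hox genes, which set position along the body axis, had 0 of 10 tested genes called in either direction and a list median of 0.68. Added together, the 30 listed Hox genes stood at 404 CPM against 155 in Lox_CTR, 184 against 150 in KO_CTR, 226 against 263 in Lox_HFD and 160 against 207 in KO_HFD. The exact Poisson interval of the gated level was 366 to 445 CPM in Lox_CTR and left out the level of the other fibroblasts. In KO_CTR it was 146 to 229, in Lox_HFD 150 to 326 and in KO_HFD 104 to 234 CPM, and each held that level, so a difference was not detectable there at this depth. Of the cardiac and epicardial factors, 1 of 8 was higher and 1 lower. Hey1, a target of Notch signalling, was higher (2.86 ± 0.46, edgeR adjusted p = 0.00276) with 0 UMIs in Lox_HFD. Tcf21, which marks epicardium-derived fibroblasts, was lower, at 15.0, 60.6, 0 and 12.3 CPM against 114, 151, 32.9 and 28.4 (−2.11 ± 0.32, adjusted p = 0.00182).

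Among genes with at least 20 UMIs observed or expected in the gated cells, which leaves out Barx1, the 12 with the largest higher fold changes that went the same way in all 4 libraries were Gdnf, Pax9, Dlx6, Kctd1, Foxf1, Kcnma1, Scin, Shroom3, Gcnt2, Pde7b, Cap2 and Slc6a2. Gdnf encodes a growth factor for enteric and motor neurons. It had 24 UMIs in the gated cells of Lox_CTR, 2 in KO_CTR, 1 in Lox_HFD and 1 in KO_HFD, against 0.734, 0.475, 0.170 and 0.539 CPM in the other fibroblasts (4.47 ± 0.61, edgeR adjusted p = 0.000821). Its 24 UMIs lay in 10 cells, and without Lox_CTR it was not called (3.56, adjusted p = 0.335). Kctd1, whose product represses AP-2 factors, stood at 83.8, 18.6, 32.2 and 43.0 CPM against 5.62, 6.05, 4.77 and 5.75 (adjusted p = 0.000859).

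Scin, for the actin-severing protein scinderin, was high mainly in Lox_CTR. It had 122 UMIs there and 4, 1 and 2 in the other libraries, and without Lox_CTR its log2 fold change was 0.63 (edgeR adjusted p = 0.943), against 2.50 ± 0.55 (adjusted p = 0.025) with it. DESeq2 did not call Scin (1.73, DESeq2 adjusted p = 0.272) or Gcnt2 (1.94, adjusted p = 0.106). Slc6a2, for the noradrenaline transporter, was at 65.9 CPM against 11.8 in Lox_CTR, 11.6 against 10.9 in KO_CTR, 24.2 against 3.24 in Lox_HFD and 30.7 against 4.85 in KO_HFD. Its log2 ratio was thus 2.48, 2.90 and 2.66 in Lox_CTR, Lox_HFD and KO_HFD and 0.10 in KO_CTR, on 66, 3, 5 and 5 UMIs in that order. Without Lox_CTR its log2 fold change was 1.36 (edgeR adjusted p = 0.526), against 1.94 ± 0.43 (adjusted p = 0.0256) with it. Slc6a2 was also not called without Lox_HFD (1.84, adjusted p = 0.0522) or without KO_HFD (1.82, adjusted p = 0.1). Kcnma1, Shroom3, Gcnt2, Pde7b and Cap2 were no longer called without Lox_CTR (adjusted p between 0.107 and 0.878). The log2 fold change of Gcnt2 was then 1.21 in place of 2.12 and that of Kcnma1 2.13 in place of 2.67, while that of Shroom3 was 2.15 in place of 2.17, that of Pde7b 2.39 in place of 2.11 and that of Cap2 1.82 in place of 2.10. Shroom3 and Pde7b were not called with any 1 library left out, with log2 fold changes of 2.14 to 2.20 and 1.84 to 2.39. Gcnt2 was also not called without Lox_HFD (2.13, adjusted p = 0.106) or KO_HFD (2.21, adjusted p = 0.0814). Cap2 was also not called without KO_CTR (2.09, adjusted p = 0.109) or Lox_HFD (2.08, adjusted p = 0.0692). Of these 12 genes and the 12 lower genes named below, 23 could be tested without Lox_CTR, and 11 of the 23 were then no longer called.

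The progenitor-like adventitial list, genes of Pi16-bearing fibroblasts, held the most lower genes. Of 19 tested 10 were lower (52.6%, against 1.31% of all genes tested) and 0 higher, with a list median of −1.14. Procr, for the endothelial protein C receptor, was at 11, 0, 16.1 and 6.14 CPM against 106, 63.5, 75.3 and 70.5 (−3.54 ± 0.37, edgeR adjusted p = 0.000177). Pi16 itself, for peptidase inhibitor 16, was at 617 CPM in Lox_CTR, 1514 in KO_CTR, 2772 in Lox_HFD and 1719 in KO_HFD, against 3242, 3356, 3750.2 and 2800.4 (−1.25 ± 0.22, adjusted p = 0.00555). It was thus lower in every library but still abundant, and the gap was widest in Lox_CTR. Dpp4, for a membrane peptidase, was at 7.98, 0, 8.06 and 49.1 CPM against 56.6, 60.3, 106 and 77.3. Cd55, an inhibitor of complement on cell surfaces, was lower (−1.74 ± 0.23, adjusted p = 0.000806). Cd34 and Ly6a, markers of adventitial progenitors, were lower to a smaller extent (−0.64 ± 0.16 and −0.57 ± 0.13, adjusted p = 0.045 and 0.037). With a library left out Ly6a was called in 0 of 4 fits (log2 fold changes of −0.66 to −0.50, adjusted p between 0.0669 and 0.145), and Cd34 was called without KO_HFD alone (−0.61 to −0.57, adjusted p between 0.0965 and 0.19 in the others). Ly6a belongs to a family of near-identical neighbouring genes, so its reads may be shared between copies.

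Some genes had few or no UMIs in the gated cells. Cxcl13, Trdn, Alkal2 and Krtdap had 0 UMIs in all 113 cells. Against a floor of 3 UMIs over the pooled cells, Cxcl13, a chemokine for B cells, was at least 18.5-fold lower than in the other fibroblasts. Trdn was at least 7.76-fold lower, Alkal2 at least 7.08-fold and Krtdap at least 5.16-fold. These bounds count UMIs, which a few cells held. Cxcl13 was found in 1.99% to 2.84% of the other fibroblasts, with 311 of its 1916 UMIs in Lox_CTR in 1 cell, and at those shares 3.12 of the 113 gated cells would hold it. For Trdn that number was 3.56, for Alkal2 8.35 and for Krtdap 1.72 cells. Cxcl13 was not called by DESeq2 (adjusted p = 0.36) or by edgeR with no library term (adjusted p = 0.277). Alkal2 was not called by DESeq2 (adjusted p = 0.0558), with no library term (adjusted p = 0.286) or without Lox_CTR (adjusted p = 0.259). Myoc, for myocilin, had 1 UMI, in Lox_CTR, where its log2 ratio to the other fibroblasts was −4.96 (−10.3 to −2.48). Basp1, for a membrane protein of growing axons, had 3 UMIs, all in Lox_CTR (log2 ratio −3.49, −5.77 to −1.94). Edn1, for the vasoconstrictor endothelin-1, had 1, 0, 0 and 4 UMIs against 35.8, 45.1, 76.4 and 67.2 CPM (−3.93 ± 0.54, edgeR adjusted p = 0.000844). The 4 UMIs of KO_HFD lay in 1 cell, and without that library the log2 fold change of Edn1 was −6.06. Igfbp3, Bmp3, Sema3e, Ptn and Gngt2 completed the 12 lower genes, with 2, 1, 1, 8 and 4 UMIs in all gated cells. Igfbp3 was not called without Lox_CTR (adjusted p = 0.0828).

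Chemokine and cytokine genes held 5 lower (23.8%, against 1.31% of all genes tested) and 0 higher of 21 tested, with a list median of −0.42. Added together, the list was at 2170 CPM (2080 to 2263, exact Poisson interval) against 3683 in Lox_CTR, 1996 (1865 to 2134) against 3279 in KO_CTR and 2232 (1977 to 2511) against 3093 in Lox_HFD. In KO_HFD it went the other way, at 5017 (4679 to 5373) against 3575 CPM, with Ccl7, a chemokine for monocytes, at 1480 against 333. Besides Cxcl13 these were Cxcl12, Csf1, Cxcl2 and Il1r1. Cxcl12, which holds leukocytes and progenitors in tissue, was at 92.8, 284, 266 and 289 CPM against 440, 319, 942 and 849 (−1.51 ± 0.26), and was not called without KO_HFD (−1.47, adjusted p = 0.0538). Cxcl2 (−0.83) was called without Lox_CTR alone (−0.87 to −0.70, adjusted p between 0.0509 and 0.173 in the other fits). Il1r1 (−1.07) was called without KO_CTR alone (−1.15 to −0.91, adjusted p between 0.106 and 0.227 in the other fits). Csf1, the growth factor of macrophages, was lower too (−1.15 ± 0.18, edgeR adjusted p = 0.00211). Complement genes held 2 lower of 14, C3 (−1.22 ± 0.23) and Cd55. Of 23 interferon-stimulated genes 0 were called in either direction, and of 30 immediate early and heat shock genes, which mark stress during digestion, 0 were called, with a list median of −0.06. Added together, the immediate early and heat shock genes were at 33027 CPM against 28366 in Lox_CTR and 21760 against 26215 in KO_CTR. In Lox_HFD they were at 25964 (25075 to 26877) against 25460, and in KO_HFD at 29671 against 26518. The interferon-stimulated genes were at 1915 against 1410, 1253 against 1540, 637 against 1053 and 1167 (1007 to 1345) against 1213 in the same order.

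Matrix genes were mixed, and the summed lists went opposite ways in the 2 CTR libraries. The collagens added up to 6659 CPM (6500 to 6821, exact Poisson interval) against 10447 in Lox_CTR and 18807 (18399 to 19222) against 14110 in KO_CTR, and to 8252 (7754 to 8773) against 10351 in Lox_HFD and 10924 (10422 to 11444) against 8737 in KO_HFD. The proteoglycans and matricellular proteins were at 10102 against 12255 CPM in Lox_CTR and 21602 against 14164 in KO_CTR, while in Lox_HFD the interval (11295 to 12517) held the 12009 CPM of the other fibroblasts and in KO_HFD it (11406 to 12474) lay just above their 11365 CPM. The elastic fibre genes were at 6185 against 8647 CPM in Lox_CTR and above the other fibroblasts in the other libraries, at 13603 against 10539, 9759 against 8327 and 10193 against 7658. Of the small leucine-rich proteoglycans and matricellular proteins 3 of 23 were lower, Ogn (−0.89 ± 0.14), Postn (−2.64 ± 0.35) and Tnxb (−1.03 ± 0.20), of which Tnxb was not called without Lox_HFD (−1.02, edgeR adjusted p = 0.0507). Of the elastic fibre genes 3 of 20 were lower and 1 higher. Fbn1, for the microfibril protein fibrillin-1, was at 277, 480, 556 and 454 CPM against 702, 991, 973 and 819 (−1.10 ± 0.14, edgeR adjusted p = 0.000686). Ltbp1, which tethers latent TGF-beta to those microfibrils, was higher, at 596, 538, 500 and 405 CPM against 205, 253, 256 and 248 (1.02). Of 21 collagens Col4a5 of basement membranes was higher (0.75 ± 0.17) and Col12a1 lower. Col12a1 was not called without KO_HFD (−2.33 in place of −2.37, adjusted p = 0.0581). Its log2 fold change was −5.20 without Lox_CTR, −1.86 without KO_CTR and −2.23 without Lox_HFD, and it was called in each of these fits. Col4a5 was not called without Lox_CTR (0.66, adjusted p = 0.167), Lox_HFD (0.69, adjusted p = 0.116) or KO_HFD (0.73, adjusted p = 0.122). Of 17 metalloproteinases and inhibitors Adamts5, which cleaves proteoglycans, was lower (−1.79 ± 0.19, adjusted p = 0.000177).

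Signalling genes went in both directions. Of the TGF-beta and BMP list 2 of 30 were higher, the ligand Tgfb3 (1.10 ± 0.18, edgeR adjusted p = 0.00306) and the target Id1 (1.17 ± 0.27), and the ligand Bmp3 was lower. Pcsk6, for a protease that activates TGF-beta family ligands and belongs to none of the lists described, had the smallest adjusted p among the lower genes, at 23.9, 32.6, 32.2 and 67.5 CPM against 183, 217, 298 and 208 (−2.69 ± 0.23, adjusted p = 5.68e-05). Of the FGF, IGF, PDGF and hedgehog list 2 of 25 were higher and 2 lower. Igf1, a growth factor ligand, was at 1633, 815, 475 and 467 CPM against 529, 556, 181 and 251 (1.04 ± 0.18), with Igfbp5, which binds it, lower (−1.48 ± 0.19). The Wnt antagonist Sfrp1 was the 1 called gene of 26 in the Wnt list (−2.92 ± 0.34, adjusted p = 0.000306). Added together, that list was at 1065 CPM against 2522 in Lox_CTR and 1676 against 3610 in Lox_HFD. It went the other way in KO_CTR, at 4118 against 2451. In KO_HFD its exact Poisson interval (3048 to 3614) held the 3605 CPM of the other fibroblasts. In the retinoic acid pathway 2 of 14 were lower, Aldh1a3, which makes retinoic acid, and Rbp4, which carries retinol. Of the axon guidance and neurotrophic factors 2 of 32 were higher, Gdnf and Epha4, and 3 lower, Cxcl12 and Sema3e among them. Id1, Rbp4 and Epha4 were each not called in 3 of the 4 fits with a library left out, with the largest adjusted p at 0.267 for Id1 (log2 fold change 0.76 without KO_CTR), 0.226 for Rbp4 (−1.30 without KO_HFD) and 0.17 for Epha4 (1.45 without KO_CTR).

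Of 10 aquaporins and purinergic receptors tested, Aqp1 was called higher (2.57 ± 0.48, edgeR adjusted p = 0.00855), but its libraries disagreed. It was at 289 CPM against 23.7 in Lox_CTR and 83.9 against 9.94 in KO_CTR, and at 0 against 6.65 in Lox_HFD and 12.3 against 22.2 in KO_HFD. The test of that difference between diets gave −4.66 ± 0.70 with an adjusted p of 0.141, and without Lox_CTR it was not called (1.74, adjusted p = 0.077). Of its 36 UMIs in KO_CTR 19 lay in 1 cell, while in Lox_CTR its 290 UMIs lay in 58 cells.

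Markers of other cell types were read beside these results. Of 8 pericyte markers 5 were tested and 3 were higher: Abcc9 and Kcnj8, the 2 parts of an ATP-sensitive potassium channel, and Rgs5. Rgs5 was at 31.9 CPM against 10 in Lox_CTR and 72.2 against 3.63 in KO_CTR, where 21 of its 31 UMIs lay in 1 cell, and at 0 against 2.90 and 2.78 CPM in Lox_HFD and KO_HFD, so its call rests on the CTR libraries (2.46 ± 0.59, edgeR adjusted p = 0.0413). It had too few UMIs to be tested without either of them. Abcc9, the most abundant of the list with 745 UMIs, was at 343, 491, 669 and 657 CPM against 232, 194, 288 and 340 (0.93 ± 0.16, edgeR adjusted p = 0.004). Kcnj8 was at 164, 235, 242 and 301 CPM against 85.9, 79.1, 86.9 and 129 (1.21 ± 0.17). Both were therefore also expressed in the other fibroblasts. The pericyte markers Notch3, Vtn and Higd1b were at 0 in the gated cells, and the list added up to 609, 1076, 1096 and 1105 CPM against 435, 401, 450.01 and 562.

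Of 10 endothelial markers 2 were tested. Pecam1 was higher, at 148, 58.2, 32.2 and 67.5 CPM against 35.9, 23.5, 14.3 and 16.9 (1.68 ± 0.24), and Tek was lower (−3.03 ± 0.40). Cdh5 and Tie1 were at 0, and 45 of the 148 Pecam1 UMIs of Lox_CTR lay in 1 cell. Of the smooth muscle markers, of which the gate caps Myh11, 0 of 9 were called, and the list stood at 704, 829, 427 and 516 CPM against 732, 509, 414 and 771. Of 10 leukocyte markers 0 were called, with a list median of −0.44. Of 10 mesothelial markers 8 were at 0, Msln and Upk3b among them, and Nkain4 was higher (1.21 ± 0.25). Of the Schwann cell markers Ncam1 was higher (2.52 ± 0.41), and Sox10 was at 0. Perineurial markers added up to 237, 342, 153 and 313 CPM against 166, 218, 217 and 206. Of the 4 tested Lypd2 was lower (−2.87, edgeR adjusted p = 0.0462). It was called in 0 of 4 fits with a library left out. Without Lox_CTR neither Nkain4 (0.95, edgeR adjusted p = 0.125) nor Ncam1 (1.66, adjusted p = 0.151) was called, and Nkain4 was also not called without KO_HFD (1.07, adjusted p = 0.12). Added together, cardiac muscle markers were at 7.98, 170 (133 to 214, exact Poisson interval), 0 and 12.3 CPM against 13.01, 46.6, 7.16 and 6.73. Chondrocyte markers were at 302, 652 (578 to 733), 322 and 276 against 248, 196, 245 and 325. Adipocyte markers were at 40.9, 93.2 (66.6 to 127), 0 and 12.3 against 67.7, 44.1, 39.7 and 52.5. In each of these 3 lists only 2 genes were tested and 0 were called, too few for the 0 to be a result about the list. With every cell that held a marker of leukocytes, endothelium, Schwann cells, mesothelium or epithelium or over 30000 UMIs left out of both classes, 35 genes were higher and 131 lower. Of these, 23 and 85 were among those called with all cells. A single UMI of such a marker left a cell out, and Pecam1, itself called higher in the gated cells, was among the markers. In Lox_CTR 27 of 75 gated cells and 1975 of 3493 other fibroblasts stayed, and the part of Pecam1 in the smaller counts was not tested. Without the cells left out, 27, 6, 3 and 3 gated cells and 10 of the 24 named genes remained to test. Of these genes 6 were still called, Kctd1, Procr and Edn1 among them. Slc6a2 (edgeR adjusted p = 0.196), Trdn (adjusted p = 0.124), Bmp3 (adjusted p = 0.0662) and Gngt2 (adjusted p = 0.0773) were not.

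**Figure D4:**
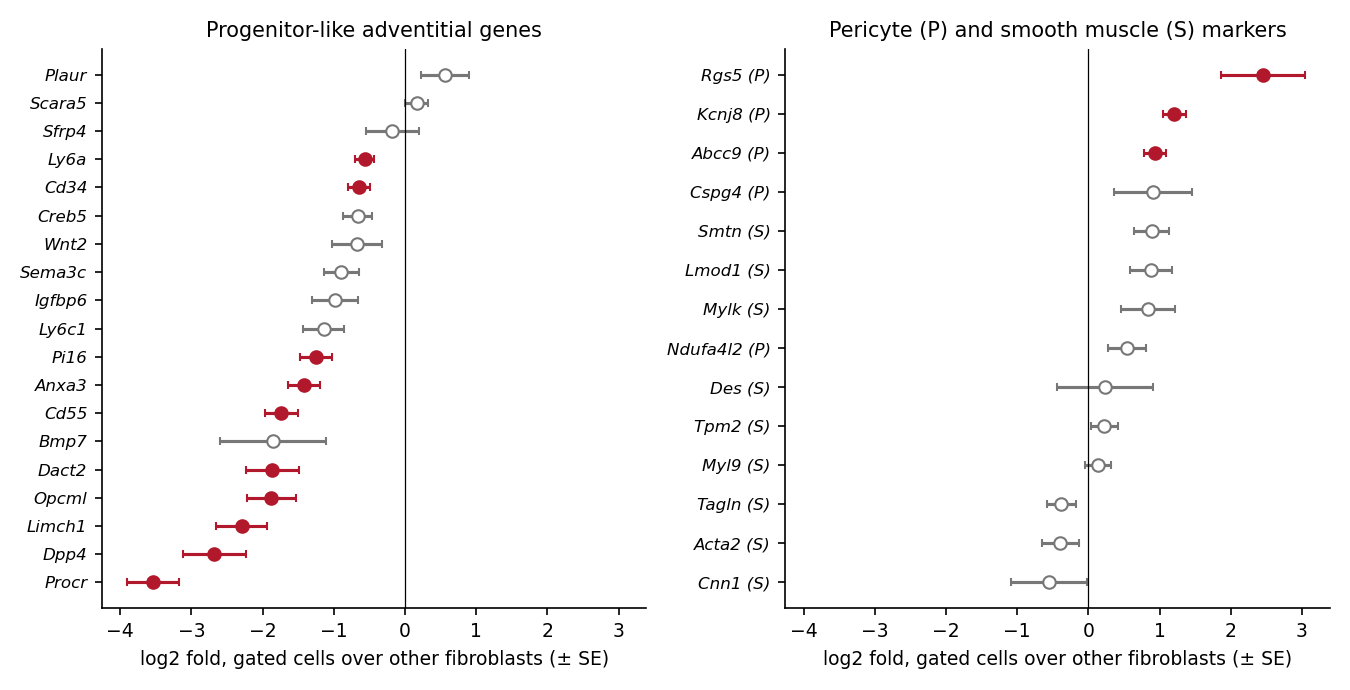
The plot shows the edgeR log2 fold change between the gated cells and the other fibroblasts with its SE (horizontal axis) for each tested gene of the progenitor-like adventitial list, at left, and of the pericyte and smooth muscle markers, at right, with called genes filled in red. The adventitial genes lie mostly below 0 with a median of −1.14, and Abcc9, Kcnj8 and Rgs5 are the called genes at right.

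The gated cells overlapped the other fibroblast subsets that can be cut from the same gate. Cells with at least 2 UMIs of Pi16 and Dact2 were 79 of the 113 (69.9%, 60.6 to 78.2) against 88.8% of the other fibroblasts. That gap came from Lox_CTR, with 56.0% against 87.4%, while in KO_CTR and Lox_HFD all gated cells passed. Cells with at least 2 UMIs of Penk and Epyc were 12% of the gated cells against 30.6% of the other fibroblasts in Lox_CTR, 0 of 21 against 24.9% in KO_CTR and 0 of 6 against 29.9% in Lox_HFD, while in KO_HFD they were 27.3% (6.02 to 61.0) against 21%. Cells with at least 2 of Cilp and Meox1 were 12.4% against 14.4% over all libraries. Cells with at least 10 UMIs of Comp and Fmod, genes of tendon and cartilage-like matrix, were 52.4% (29.8 to 74.3) against 10.5% in KO_CTR. In the other libraries they were no more frequent among the gated cells, at 4% against 9.96% in Lox_CTR, 16.7% against 19.7% in Lox_HFD and 9.09% against 16.4% in KO_HFD. Over all libraries, KO_CTR included, 16 gated cells were in that subset, and all 16 held Mab21l2 alone. In KO_CTR 11 of the 17 cells with Mab21l2 alone were in that subset, and of the 75 cells with Tfap2b over all libraries 0 were.

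Split in this way, after the values were seen and with no test, the cells of Lox_CTR with Tfap2b carried further genes that were almost absent from other fibroblasts. Lcn11, of the lipocalin family, had 27 UMIs in these 65 cells and 5 in the 3493 other fibroblasts of the library. Syndig1, for a synaptic membrane protein, had 23 and 5, Lgals7, for galectin-7 of stratified epithelia, had 62 and 36, and Cxcl15 had 29 and 0. The muscarinic receptor gene Chrm2 had 25 and 42. These cells lacked Meox1, a homeobox gene of somites (0 UMIs against 41.0 CPM), and Tbx20, a heart factor (0 against 33.5 CPM), and held little Hand2 (3.45 against 48.8 CPM), Rbp4 (28.7 against 520.3 CPM) and Vcam1 (13.8 against 210 CPM). Hand2 was not called over all libraries (edgeR adjusted p = 0.885). Meox1 was called lower over all libraries and in each fit with a library left out, Lox_CTR included, so its low level was not confined to these cells.

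The 28 cells with Mab21l2 alone in the other 3 libraries had other leading genes, most of them through the 17 such cells of KO_CTR. Hhip, for an inhibitor of hedgehog ligands, was at 422 CPM there against 43.1 in the other fibroblasts, with 0 UMIs in these cells of Lox_HFD and KO_HFD. Lamc3, for a laminin chain, had 74 of its 76 UMIs in KO_CTR, at 210 against 29.4 CPM. Fmod, for fibromodulin, was at 547 against 86.3 CPM in KO_CTR, and at 59.4 against 203 in Lox_HFD and 71 against 148 in KO_HFD. Cytl1 was higher in these cells of all 3 libraries, at 408 against 69 CPM in KO_CTR, 1223 against 159 in Lox_HFD and 337 against 162 in KO_HFD, with its UMIs in 5, 2 and 2 cells. Phex, an endopeptidase gene of bone, was at 103 CPM in the Lox_CTR cells with Tfap2b and at 70.9 CPM in the KO_CTR cells with Mab21l2 alone, with 1 UMI in those of each HFD library. Procr was low in both sets, at 11.5 CPM in the Lox_CTR cells with Tfap2b and 1.82 CPM over the 28 cells.

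Nfe2l2, the targeted gene (chr2:75675513-75704641, minus strand), was read in every library. Its level in the gated cells was 151 CPM in Lox_CTR, 163 in KO_CTR, 113 in Lox_HFD and 79.8 in KO_HFD, from 151, 70, 14 and 13 UMIs. In the other fibroblasts it was 191, 205, 206 and 247 CPM. The log2 fold change of −0.74 ± 0.21 did not pass the threshold (edgeR adjusted p = 0.0976). Counts per gene do not separate exon 5 from the other exons, and the gated cells held 0 UMIs of Cdh5, whose promoter drives the Cre, so these values do not check the genotype labels. Of 22 Nrf2 targets and partners tested 1 was called. Gclc, for the catalytic part of the enzyme that starts glutathione synthesis, was at 310.3 CPM against 42.5 in Lox_CTR, 48.9 against 32.3 in KO_CTR, 80.6 against 41.1 in Lox_HFD and 79.8 against 33.1 in KO_HFD (1.59 ± 0.33, adjusted p = 0.0189). It was not called without Lox_CTR (0.81, adjusted p = 0.22) or without KO_HFD (1.68, adjusted p = 0.0724).

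Whether the differences depended on diet or on the genotype label was tested on the same sums, with 2 libraries on each side. For diet 0 of 10803 genes were called (0%), with 409 at an unadjusted p below 0.05 and 0 called by DESeq2. For the genotype label 23 genes were called (0.213%), 16 with a larger and 7 with a smaller log2 difference in the libraries labelled Nrf2Cdh5tKO, and DESeq2 called 1. The share of gated cells with Tfap2b, 86.7% and 33.3% in the Lox libraries and 19.0% and 36.4% in the KO libraries, moved with the label between the CTR libraries, and its part in these calls was not tested.

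**Figure D5:**
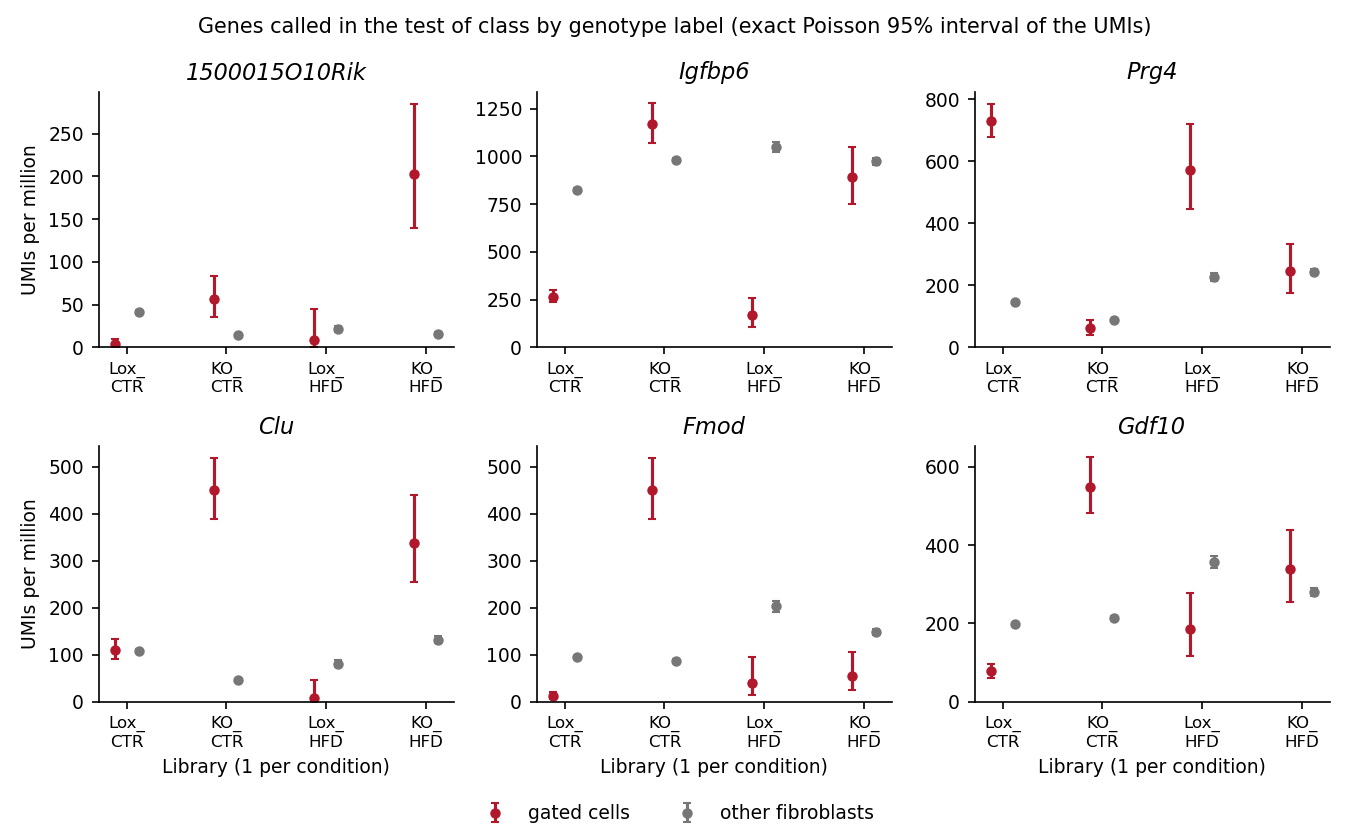
The plot shows the level in CPM of 1500015O10Rik, Igfbp6, Prg4, Fmod, Clu and Gdf10 in the gated cells and in the other fibroblasts of each library, with exact 95% Poisson intervals of the UMIs. Fmod is high in the gated cells of KO_CTR alone, at 450 CPM.

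Between conditions, levels within the gated cells were set side by side with no test. The gated cells were a different mix in each library, with Tfap2b in 86.7%, 19.0%, 33.3% and 36.4% of them and the limit of Comp and Fmod passed by 4%, 52.4%, 16.7% and 9.09% in Lox_CTR, KO_CTR, Lox_HFD and KO_HFD, and the part of this mix in these comparisons was not tested. For diet, the atherosclerotic library was compared with the normocholesterolemic one of the same label, and a gene was counted where it differed at least 2-fold in the same direction in both pairs with intervals that left out 0. Of 3375 genes 21 were higher with high-fat diet (0.622%) and 17 lower (0.504%). Ly6c1, of the same gene family as Ly6a, was at 209 CPM in Lox_CTR and 886 in Lox_HFD, and at 72.2 in KO_CTR and 313 in KO_HFD (log2 ratios 2.09 and 2.12). In the other fibroblasts the ratios were 0.63 and 0.42. Of the 110 UMIs in Lox_HFD 64% lay in 1 cell. Lgi2, Smpd3, Ccl11, Hist1h4d, Mpp6, Gm12840 and Heg1 followed it, and of these Heg1, for an endothelial junction protein, was found in 5 of 6 cells in Lox_HFD and 11 of 11 in KO_HFD.

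Iigp1, an interferon-induced GTPase gene, was lower with high-fat diet, at 131 CPM against 16.1 and at 179 against 18.4 (log2 ratios −3.02, −6.08 to −1.14, and −3.28, −5.59 to −1.68). Sparcl1, a matricellular gene, had 104 and 100 UMIs in Lox_CTR and KO_CTR and 0 in both HFD libraries, at least 4.29-fold and 12.6-fold lower against a floor of 3 UMIs per library. Rgs5 also had 0 UMIs in both HFD libraries, at least 1.32-fold and 3.92-fold lower. Ppp1r14a and Pdlim3, genes of the contractile apparatus, Sesn3, Aqp1 and Hhip completed the 8 genes named. In the other fibroblasts Sparcl1 was lower too, with log2 ratios of −1.01 and −2.64.

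For the genotype label, 13 of 1440 genes were higher in the libraries labelled Nrf2Cdh5tKO in both diets (0.903%) and 4 lower (0.278%). The higher genes named were 1500015O10Rik, Tnfaip2, Igfbp6, Clu, Serpina3n, Amotl2, Thbd and Ptgs2. Thbd, for thrombomodulin, was at 80.8 CPM in Lox_CTR and 335 in KO_CTR, and at 210 in Lox_HFD and 540.4 in KO_HFD, in 25, 19, 6 and 10 cells (log2 ratios 2.05 and 1.37). In the other fibroblasts its ratios were 0.31 and −0.18. Of the 133 UMIs of Tnfaip2 in KO_CTR 98% lay in 1 cell, and of the 192 of Ptgs2 in KO_HFD 69% did. The 4 lower genes were Ly6c1, Prg4, Ecm1 and Neat1, and Ecm1, for extracellular matrix protein 1, was at 1655 against 766 and 1120.1 against 454 CPM, Lox before KO. The cells behind the Lox_HFD and KO_HFD values numbered 6 and 11, and their spread between mice is unknown.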

How the data were processed

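The authors mapped Chromium 3′ reads of each pooled arch library to mm10 and counted UMIs with Cell Ranger 6.1.2, per the labels and the study's methods. The deposited values were raw counts of UMIs per gene and barcode, not normalized, and no cell annotation was used. Libraries held 12276546 to 98754487 UMIs. The gate, the 35 gene lists and the tests were chosen with earlier results of these data known.

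UMIs were summed per library over Tfap2b/Mab21l2 fibroblasts (called members or gated cells) and over the other fibroblasts. The 8 sums were tested with edgeR 4.0.16 (R 4.3.3; filterByExpr, TMM scaling, glmQLFit, glmQLFTest, library as a term, Benjamini-Hochberg adjustment), leaving out the 6 gate genes and 3 listed markers. The pairs come from 4 libraries, so the spread is that between 4 pools. Diet and genotype label were tested as interactions with class. Log2 fold changes are given ± SE, and a list is described by its counts and median. The named genes were the 12 largest called changes per direction in the same direction in all 4 libraries with at least 20 UMIs observed or expected in the gated cells, and up to 4 called genes per list. Genes outside it (Pcsk6, Phex, Hand2 and the genes of the split by Tfap2b) were chosen after their values were seen.

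Levels are CPM with exact Poisson intervals, shares have Clopper-Pearson intervals and ratios have binomial intervals, all at 95%. Genes between conditions were named by size, up to 8 per direction, from those with at least 20 UMIs in the higher library of each pair. A gene at 0 UMIs was set against a floor of 3. The agent injected into the HFD mice and single genes of the lists are not reported here. No doublet caller was run, and an alternative left out cells with markers of other cell types, Pecam1 among them. Gene positions are from GENCODE M21 on GRCm38, the assembly of mm10, and promoters from RefSeq. The tests were first tested on simulated data. Alternatives were DESeq2 1.42.0 and changes of scaling, filter, gate and reference cells.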

Additional observations from a re-analysis of the deposited data

Results flagged for a closer look

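Differences between the gated cells and the other fibroblasts were also tested for dependence on the genotype label, and the 6 genes with the smallest adjusted p are given here, each as the log2 difference between the 2 classes in the libraries labelled Nrf2Cdh5tKO minus that in the Lox libraries. For 1500015O10Rik, which encodes the secreted peptide augurin, it was 5.87 ± 0.68 (edgeR adjusted p = 4.59e-06), and it was the 1 gene that DESeq2 also called. The gated cells held 4, 24, 1 and 33 UMIs of it in Lox_CTR, KO_CTR, Lox_HFD and KO_HFD, and 26 of the 33 lay in 1 cell.

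For Igfbp6, which binds insulin-like growth factors, it was 2.07 (edgeR adjusted p = 0.00236), with 265, 1172, 169 and 890 CPM against 824, 981, 1049 and 974 in the other fibroblasts. Of its 503 UMIs in KO_CTR 152 lay in 1 cell and 137 in another. For Prg4, which encodes the lubricant proteoglycan 4, it was −2.14 (adjusted p = 0.0101), and 262 of the 733 UMIs in Lox_CTR and 62 of the 71 in Lox_HFD lay in 1 cell each. For Clu, which encodes clusterin, it was 2.82 (adjusted p = 0.0113), with 110, 193, 1 and 55 UMIs, of which 71 in KO_CTR lay in 1 cell and 64 in another.

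For Fmod it was 3.78 (edgeR adjusted p = 0.0113), and its 193 UMIs in KO_CTR lay in 14 cells, all with Mab21l2 alone. In KO_HFD Fmod was at 55.3 CPM in the gated cells against 148 in the other fibroblasts, so the call rests on KO_CTR. For Gdf10, a BMP family ligand, it was 2.01 (adjusted p = 0.0113), with 227 of its 236 UMIs in KO_CTR in the cells with Mab21l2 alone. The gated cells with Mab21l2 alone numbered 10, 17, 4 and 7 in the same order of libraries, and their part in these differences was not tested.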

How the results depend on the processing

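The number of genes higher in the gated cells was 24 with depth-matched reference cells, 42 with a minimum count of 50, 251 with no filter on low counts and 35 without cells with markers of other types, and between 51 and 69 with a library left out. The number lower was 62, 84 and 290 under the first 3 of these and 76 with no library term, and between 110 and 132 with a library left out. Depth matching left 7191 genes to test, 8 of the 24 named genes among them, of which 6 stayed past the threshold. Each of the 24 named genes that could be fitted kept its direction in every setting run. They had been chosen as called and as going the same way in all 4 libraries. Their direction was thus largely set by that choice and is no check of it. Under RLE scaling, no filter and a reference without any UMI of the gate genes, all 24 stayed past the threshold. Without Lox_CTR 11 of 23 were lost, Foxf1, Gdnf, Scin and Slc6a2 among them, with values given above. DESeq2 lost 5 of 24, no library term 6 of 24 and leaving out cells with markers of other types 4 of 10. DESeq2 called 1 gene for the genotype label where edgeR called 23. The share of gated cells depended on the gate and on depth. At 3 UMIs it was 1.21%, 0.358%, 0.490% and 0.314% in Lox_CTR, KO_CTR, Lox_HFD and KO_HFD. With 1 UMI of each gene it was 1.18%, 0.215%, 0.245% and 0.209%, and thinned to 5000 UMIs 0.785%, 0.299%, 0.268% and 0.247%. Without the Myh11 limit, an alternative chosen after seeing the data, the shares were 2.86% (2.35 to 3.44) in Lox_CTR, 1.52% (0.956 to 2.29) in KO_CTR, 1.65% (0.668 to 3.38) in Lox_HFD and 1.08% (0.538 to 1.92) in KO_HFD, and the interval of Lox_CTR then lay apart from those of both KO libraries. Counts of genes between conditions stayed within 1.5 times under TMM-scaled totals and means over cells. Each condition is 1 pool, so differences between mice are unknown, and with 6 and 11 gated cells in the HFD libraries low genes were not detectable there. The gated cells and the other fibroblasts were compared within each library, and 65 genes were higher with no library term.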

Other observations

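Some cells that missed the fibroblast gate on Myh11 alone also held Tfap2b in Lox_CTR. They were looked for after the values were seen and given no test. Of 245 cells of that library that passed the Dcn, Pdgfra and Ptprc limits and held over 1 UMI of Myh11, 34 held at least 2 UMIs of Tfap2b and Mab21l2 (13.9%, 9.81 to 18.8). In KO_CTR it was 1 of 50 (2.00%, 0.0506 to 10.6) and in Lox_HFD 1 of 15 (6.67%, 0.169 to 31.9), both intervals overlapping that of Lox_CTR, and in KO_HFD 0 of 67, with an exact upper limit of 5.36%. Of the 34 cells 32 held Tfap2b. Aqp5 stood at 122 CPM in them, Nrn1 at 134 and P2ry14 at 139, and Foxf1 at 111 and Scin at 143 CPM, against 17.8 and 15.2 CPM in the 211 other cells over the Myh11 limit. The smooth muscle genes Acta2, Tagln and Myh11 were at 1307, 509 and 429 CPM in the 34 cells, against 8582, 6203 and 960.5 in the 211. In the gated cells with Tfap2b of the library Acta2 was at 187 CPM, Aqp5 at 140, Nrn1 at 77.0, P2ry14 at 83.9, Foxf1 at 114 and Scin at 138. Of these 65 gated cells 23 held a Myh11 UMI (35.4%), against 13.5% of the other fibroblasts, and the median Myh11 of the 34 cells was 3 UMIs. Whether the 34 cells and the gated cells are the same set, cut by the Myh11 limit, was not tested. The median depth of the 34 cells was 13458 UMIs and that of the 211 cells 17302.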
